A study of Mus musculus with 100 samples.

Results

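Binding of the acetyltransferase p300 was measured by chromatin immunoprecipitation and sequencing (ChIP-seq) in cultured mouse bone marrow cells before (day 0) and after 4 days of osteoclast differentiation (day 4). The members examined were 4 libraries of the 100 in the series, chosen by their labels: 2 labelled p300 Day0 and 2 labelled p300 Day4, all from C57Bl6 mice labelled Wild type. Day 0 cells were adherent precursors grown from marrow with M-CSF, and day 4 cells had then received M-CSF and RANKL. The labels call the ChIP replicates biological, and all 4 libraries carry the same library date code. The immunoprecipitate came from whole cultures, so a change in the share of cells that bind p300 and a change in binding per cell cannot be told apart.

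p300 is a coactivator that is recruited to enhancers and promoters by DNA-bound transcription factors and acetylates histones there, and its binding is widely used to locate active enhancers. Osteoclasts are multinucleated cells that resorb bone and arise by fusion of macrophage-lineage precursors. RANKL acts through its receptor RANK on NF-κB and AP-1 factors, which are known to lead to induction of NFATc1, the main transcription factor of osteoclast genes.

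The p300 libraries held 11.38 and 4.70 M tags at day 0 and 10.23 and 8.82 M at day 4. Of these tags, 3.08% and 3.16% lay in the 20143 peaks at day 0, against 9.61% and 9.53% at day 4. The peaks had been called on these same libraries, and 17814 were called reproducibly at day 4 alone, 545 at day 0 alone and 1784 at both. A peak held a median of 13 and 5 tags in the day 0 libraries and of 38 and 32 in the day 4 libraries, and 24.9% of peaks had 0 tags in the smaller day 0 library. Pearson's r between replicates, over peaks on the log2 scale, was 0.56 at day 0 and 0.79 at day 4, as a description over peaks that share a library. The day 0 levels are therefore the less precise side of every comparison below.

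Because a larger share of tags fell in peaks at day 4, each comparison was read on 2 scales. On the first, tags were divided by the library totals given with the data and are printed as tags per 10 M. On the second, the libraries were centred on all peaks with trimmed-mean (TMM) factors, so that a peak is compared with the rest of the peaks. A peak was called with edgeR's quasi-likelihood F-test when its p-value, adjusted over all peaks by Benjamini and Hochberg, was below 0.05 and its change exceeded 2-fold. By library totals, 12531 peaks were called higher at day 4 (62.2% of those tested) and 50 lower (0.248%), and the median log2 fold change was 1.84. Most peaks were in the set as day 4 peaks alone (17814, against 545 at day 0 alone). The excess of higher calls by library totals, and the larger share of tags in peaks at day 4, cannot be read apart from that choice. Centred on all peaks, 1773 were called higher (8.8%) and 771 lower (3.83%), and the median was 0.22. Each of the 1773 and of the 50 was called in the same direction on the other scale. Leaving out 1 library moved the centred counts widely, to 93 higher and 83 lower without day 4 replicate 1 and to 6119 and 1771 without day 0 replicate 1.

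**Figure D1:**
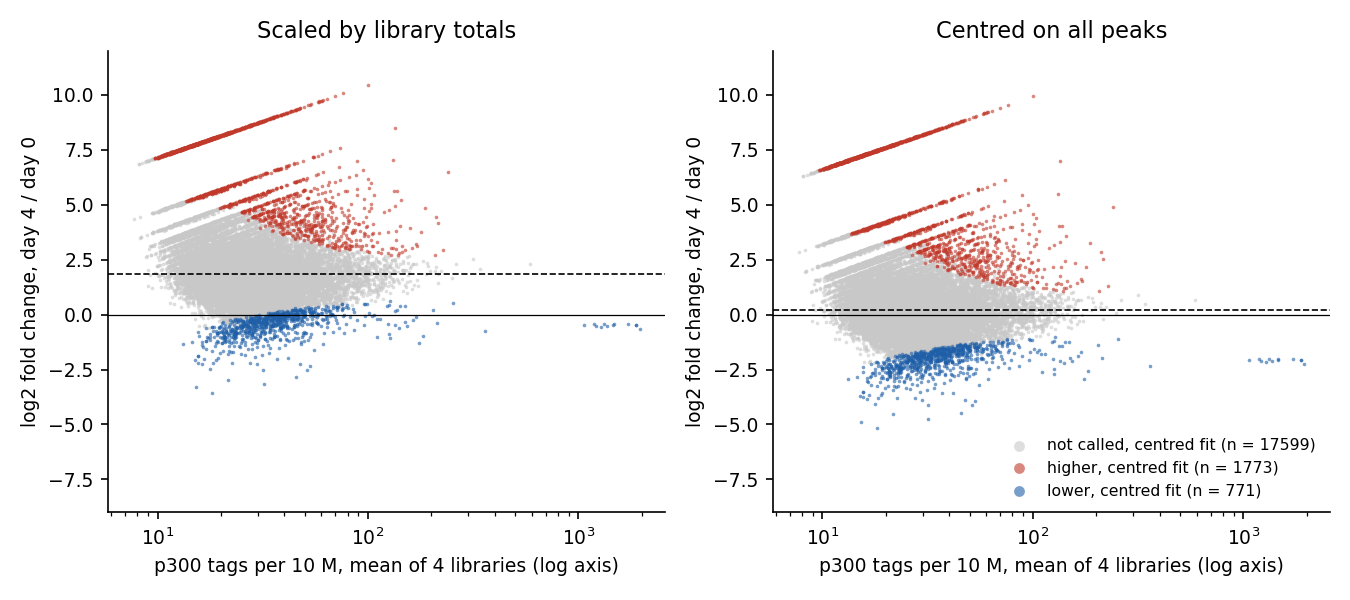
Log2 fold change of p300, day 4 against day 0, for each of the 20143 peaks (vertical axis) against the mean of its tags per 10 M over the 4 libraries (horizontal axis, log scale), by library totals and centred on all peaks. Colours mark the 1773 peaks called higher and the 771 called lower when centred, in both panels, and the dashed line is the median, 1.84 by library totals and 0.22 centred. The bands at the upper left are peaks with no or few tags at day 0, whose fitted fold changes depend on a prior count, and most of the peaks coloured lower sit near 0 by library totals.

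The peaks higher relative to the rest were mostly sites with little or no p300 at day 0. Their median level was 0 tags per 10 M in both day 0 libraries and 49.9 and 48.8 in the day 4 libraries, and 850 of the 1773 had 0 tags in both day 0 libraries. Of the 1773, 1761 were called reproducibly at day 4 alone and 12 at both. The call rests on these same tags, so the low day 0 level describes the class and is not a separate result. The peaks lower relative to the rest held tags at both times, although 340 of them were called reproducibly at day 0 alone, 108 at day 4 alone and 323 at both. Their medians were 32.5 and 44.7 at day 0 and 29.3 and 28.4 at day 4, while the medians over all peaks were 11.4 and 10.6 at day 0 and 37.2 and 36.3 at day 4. Most of the 771 were thus peaks whose tags stayed level or dropped while those of the other peaks increased: their median log2 fold change by library totals was -0.41, it was below 0 at 633 and above 0 at 138, and none of them was called higher on that scale. Both day 4 libraries were below both day 0 libraries, by library totals, at 285 of the 771 and at 289 of all 20143 peaks (1.43%).

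Sequences are shown for the strongest called peaks of 4 osteoclast genes, which carry the gain, and for 3 of the peaks lower relative to the rest with the lowest p-values. They were read from the mm10 genome of RefSeq on the plus strand, and peaks wider than 300 bases are shown by their central 300. Capitals mark the letters TGANTCA (AP-1) and TGGAAA (NFAT) on either strand, which are matches of letters and not measured sites. Coordinates are mm10.
Fos chr12:85513729-85513977: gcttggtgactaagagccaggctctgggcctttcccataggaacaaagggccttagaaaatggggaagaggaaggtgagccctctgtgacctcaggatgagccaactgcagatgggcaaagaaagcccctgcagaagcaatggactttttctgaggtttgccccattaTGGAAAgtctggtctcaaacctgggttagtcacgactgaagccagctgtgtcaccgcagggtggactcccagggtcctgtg
Calcr chr6:3752318-3752576: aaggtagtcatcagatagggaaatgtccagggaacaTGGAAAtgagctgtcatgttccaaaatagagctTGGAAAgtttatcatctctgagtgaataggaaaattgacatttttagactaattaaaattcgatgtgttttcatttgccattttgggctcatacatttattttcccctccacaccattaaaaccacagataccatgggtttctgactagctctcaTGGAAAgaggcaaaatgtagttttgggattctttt
Fosl2 chr5:32077244-32077455: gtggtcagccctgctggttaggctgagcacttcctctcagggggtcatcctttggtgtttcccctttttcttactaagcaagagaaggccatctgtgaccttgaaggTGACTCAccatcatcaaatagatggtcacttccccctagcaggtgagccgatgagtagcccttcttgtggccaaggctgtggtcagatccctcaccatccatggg
Snx10 chr6:51574155-51574356: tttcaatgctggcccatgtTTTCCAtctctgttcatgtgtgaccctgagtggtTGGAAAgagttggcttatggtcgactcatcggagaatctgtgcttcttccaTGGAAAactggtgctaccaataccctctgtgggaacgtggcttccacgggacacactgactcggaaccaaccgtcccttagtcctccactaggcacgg
Mmachc chr4:116701463-116701762: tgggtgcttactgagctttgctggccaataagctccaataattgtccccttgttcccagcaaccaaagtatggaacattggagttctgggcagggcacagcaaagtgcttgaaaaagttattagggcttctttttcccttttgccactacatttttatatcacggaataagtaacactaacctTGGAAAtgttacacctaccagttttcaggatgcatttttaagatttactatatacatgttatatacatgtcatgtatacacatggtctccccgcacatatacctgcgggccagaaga
Mir21a chr11:86581366-86581665: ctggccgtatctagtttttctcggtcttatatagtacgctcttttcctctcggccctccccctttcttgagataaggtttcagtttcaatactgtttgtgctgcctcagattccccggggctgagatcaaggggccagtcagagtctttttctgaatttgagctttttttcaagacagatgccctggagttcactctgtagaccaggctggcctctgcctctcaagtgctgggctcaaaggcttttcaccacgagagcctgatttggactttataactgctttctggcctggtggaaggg
Fth1 chr19:9985476-9985775: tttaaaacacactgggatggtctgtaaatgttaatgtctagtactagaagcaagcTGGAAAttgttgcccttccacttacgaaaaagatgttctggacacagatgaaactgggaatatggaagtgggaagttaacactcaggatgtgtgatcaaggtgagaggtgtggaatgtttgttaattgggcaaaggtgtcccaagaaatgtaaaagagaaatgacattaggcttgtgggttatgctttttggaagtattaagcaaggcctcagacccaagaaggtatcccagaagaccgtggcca
In the 4 sequences with a gain, the NFAT letters occur 3 times each in the Calcr and Snx10 introns and 1 time in the Fos peak, and the AP-1 letters occur 1 time in the Fosl2 peak. Of the 3 lower sequences, Mmachc and Fth1 hold the NFAT letters 1 time each and none holds the AP-1 letters.

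The peak called higher with the lowest p-value lay 39963 bp from the transcription start site (TSS) of Fos, the AP-1 subunit needed for osteoclast formation, and is the Fos sequence printed above. It held 3.52 and 8.52 tags per 10 M at day 0 and 476 and 468 at day 4. The groups were far apart, and the centred log2 fold change was 4.88 ± 0.45 (SE, edgeR adjusted p = 0.000816) and 6.49 by library totals. In all, 8 of the 21 peaks assigned to Fos were called higher (8.8% of all peaks were), from 25779 to 59402 bp past the TSS. One peak on the other side, at -18565 bp, was lower relative to the rest (38.7 and 97.9 tags per 10 M at day 0, 73.3 and 56.7 at day 4, centred log2 fold change -1.58), although by library totals its log2 fold change was 0.01. A further peak of this stretch of chromosome 12, assigned to Tmed10 at -49360 bp, held 17.6 and 19.2 tags per 10 M at day 0 and 376 and 429 at day 4 (centred log2 fold change 2.84, edgeR adjusted p = 0.00253).

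Among the genes of other AP-1 factors, Fosl2 and Jdp2 had several higher peaks, Batf had 1 of 6, and Jun (17 peaks), Junb (6) and Jund (2) had none. Fosl2 encodes a Fos-related AP-1 subunit, and 7 of its 24 peaks were called higher (8.8% of all peaks were). Its strongest peak, at -59123 bp in an intron of Babam2, held 5.27 and 25.5 tags per 10 M at day 0 and 359 and 357 at day 4 (centred log2 fold change 3.23, SE 0.49, edgeR adjusted p = 0.00500). A second one, at -69103 bp, had 0 tags in both day 0 libraries and 227 and 172 tags per 10 M at day 4, which is at least 108-fold higher by library totals and at least 34.7-fold when centred (floor of 3 tags over both day 0 libraries together, counting error only). Jdp2, an AP-1 partner whose loss impairs osteoclasts, had 0.879 and 10.6 tags per 10 M at day 0 and 148 and 115 at day 4 in its strongest peak at -29079 bp (centred log2 fold change 3.38, edgeR adjusted p = 0.0137).

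Nfatc1 encodes the factor that drives most osteoclast genes. Of its 6 peaks 1, the strongest, was called higher when centred, and centred log2 fold changes ran from -0.98 to 3.52. Its strongest peak lay in an intron 47532 bp from the TSS, with 0.879 and 6.39 tags per 10 M at day 0 and 107 and 71.5 at day 4. All day 4 values were over 10-fold above the day 0 values, with a centred log2 fold change of 3.42 and an SE of 0.77 (edgeR adjusted p = 0.0207), a call that was lost without either day 4 library. Prdm1 encodes Blimp1, a repressor of the genes that hold osteoclast formation back. Of its 21 peaks 7 were called higher (8.8% of all peaks were), between -60166 and -233006 bp. Its strongest, at -201005 bp, held 21.98 and 38.3 tags per 10 M at day 0 and 230 and 236 at day 4 (centred log2 fold change 1.42, edgeR adjusted p = 0.0266). Mitf, a partner of PU.1 at osteoclast genes, had 4 higher peaks of 18. The one at 60329 bp went from 3.52 and 2.13 tags per 10 M to 127 and 186 (centred log2 fold change 4.00). Over the whole list of activating factors, 33 of 161 peaks were higher (20.5%, against 8.8% of all peaks). Another 2 were lower, at Fos and Mef2d, against 3.83% of all peaks. Fosl1, Tfe3 and Esrra had no peak.

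In the signalling pathway of RANK, called peaks lay at genes of NF-κB and its regulators and at kinase and adaptor genes. An intronic peak of Nfkb1, which encodes the p50 subunit, had 0 tags in both day 0 libraries and 40.1 and 34.0 tags per 10 M at day 4 (at least 20.0-fold higher by library totals). Rel, another NF-κB subunit, had 2.64 and 6.39 tags per 10 M at day 0 and 51.8 and 79.4 at day 4 in an intron (centred log2 fold change 2.43, edgeR adjusted p = 0.0430). Traf6, the adaptor that couples RANK to NF-κB, had 0 tags at day 0 and 20.5 and 23.8 tags per 10 M at day 4 in a peak 888 bp from its TSS (at least 11.8-fold higher by library totals). Map3k7, the kinase TAK1 downstream of Traf6, had 0 tags at day 0 and 24.4 and 35.2 tags per 10 M at day 4 in a peak at 110556 bp (at least 15.8-fold higher by library totals). The promoter of Nfkbia, the inhibitor that NF-κB induces in a feedback loop, held 20.2 and 12.8 tags per 10 M at day 0 and 170 and 116 at day 4 (centred log2 fold change 1.40, edgeR adjusted p = 0.0484). Of the 53 peaks of this list 6 were higher, a share (11.3%) near that of all peaks (8.8%), and none was lower, against 3.83% of all. Relb had no peak.

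Among receptors, Calcr encodes the calcitonin receptor found on mature osteoclasts. Its strongest peak, in its own intron, had 0 tags in both day 0 libraries and 142 and 93.0 tags per 10 M at day 4, at least 63.9-fold higher by library totals and at least 20.5-fold when centred. Tnfrsf11a, which encodes RANK itself, moved both ways relative to the rest. A peak at 30388 bp went from 0.879 and 0 tags per 10 M to 39.1 and 23.8 and was called higher, while one at 20720 bp held 29.9 and 38.3 at day 0 and 17.6 and 40.8 at day 4 and was called lower (centred log2 fold change -1.82), with day 4 values on either side of those of day 0. Fcer1g, an ITAM adaptor that carries the costimulatory signal, had a lower peak at 1136 bp, from 21.98 and 36.2 tags per 10 M to 7.82 and 14.7 (centred log2 fold change -2.91). Csf1r, the receptor for M-CSF, had a higher peak at -18195 bp, from 3.52 and 0 to 70.4 and 57.9 tags per 10 M. Together 3 of the 31 peaks of the receptors and adaptors were higher (9.68%) and 2 lower, near the 8.8% and 3.83% of all peaks.

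Genes for acid secretion and matrix digestion were next. Clcn7 encodes the chloride transporter of the resorbing membrane, and its strongest peak went from 0 tags in both day 0 libraries to 90.9 and 63.5 tags per 10 M (at least 41.9-fold higher by library totals). Snx10, a sorting nexin needed for that membrane, went from 0 and 6.39 to 168 and 152 in the intron printed above, a ratio of 86.1 by library totals (95% counting interval 29.2 to 420). Car2, the carbonic anhydrase that supplies protons, went from 5.27 and 6.39 to 78.2 and 71.5 (centred log2 fold change 2.08, edgeR adjusted p = 0.0396). At each of these 3 peaks both day 4 libraries were well above both day 0 libraries. The 3 were named because they were called, and by library totals 62.2% of all peaks were called higher.

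The strongest peaks of the classic enzyme markers were called higher by library totals and not when centred, while other peaks of Ctsk and Mmp9 were called on both scales. Acp5 encodes tartrate-resistant acid phosphatase, and its strongest peak at 585 bp held 9.67 and 8.52 tags per 10 M at day 0 and 90.9 and 82.8 at day 4. All 5 of its peaks were called higher by library totals (62.2% of all peaks were). None was when centred (strongest, centred log2 fold change 1.60, SE 0.52, edgeR adjusted p = 0.0601). The protease gene Ctsk had 22.9 and 42.6 tags per 10 M at day 0 and 146 and 118 at day 4 in its strongest peak, a centred log2 fold change of 0.49 that was not called, while its peak at -1819 bp went from 16.7 and 10.6 to 122 and 135 and was called (1.52, edgeR adjusted p = 0.0378). At Mmp9, a matrix metalloprotease gene, the strongest peak (23.7 and 29.8 against 210 and 116) was not called when centred (1.02), and 3 others were, of which the one at -14546 bp from 1.76 and 0 to 97.8 and 87.3 tags per 10 M had the largest centred change. For resorption as a whole, 10 of 70 peaks were higher (14.3%, against 8.8% of all peaks) and none lower (3.83% of all), and Ostm1 had no peak.

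Cell fusion requires Dcstamp and Ocstamp, which encode related membrane proteins. The strongest peak assigned to Dcstamp, in an intron of Dpys at 25205 bp, held 31.6 and 14.9 tags per 10 M at day 0 and 99.7 and 137 at day 4, and its centred log2 fold change of 0.61 was not called. Its peak at -8274 bp was called (4.40 and 8.52 against 132 and 104, centred log2 fold change 2.71, edgeR adjusted p = 0.0125), as was one at -14021 bp. Likewise the strongest peak of Ocstamp, at -1777 bp, was not called when centred (23.7 and 6.39 against 123 and 104, log2 fold change 1.09), and its peak at -5154 bp went from 2.64 and 0 to 90.0 and 80.5 and was. Atp6v0d2, a proton pump subunit also needed for fusion, rose from 37.8 and 36.2 to 237 and 246 (centred log2 fold change 1.08, SE 0.32, edgeR adjusted p = 0.0450), a call that was lost in 6 of the alternatives, DESeq2 and the replicate block among them. Of the 52 fusion peaks 8 were higher (15.4%, against 8.8% of all peaks) and none lower (3.83% of all).

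Osteoclasts attach to bone through the αvβ3 integrin and the kinase Src. Itgav, which encodes the αv chain, went from 25.5 and 48.97 tags per 10 M to 275 and 297 at -9473 bp (centred log2 fold change 1.42, edgeR adjusted p = 0.0262). Src went from 7.03 and 14.9 to 117 and 97.6 at -16576 bp (1.82, edgeR adjusted p = 0.0346). The strongest peak of Itgb3, the β3 chain, had 10.5 and 0 at day 0 and 90.9 and 80.5 at day 4 and was not called when centred (1.99, edgeR adjusted p = 0.0808), whereas one at 31075 bp went from 1.76 and 8.52 to 82.1 and 86.2 and was (2.75). In the adhesion list 10 of 71 peaks were higher (14.1%, against 8.8% of all peaks) and none lower (3.83% of all).

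**Figure D2:**
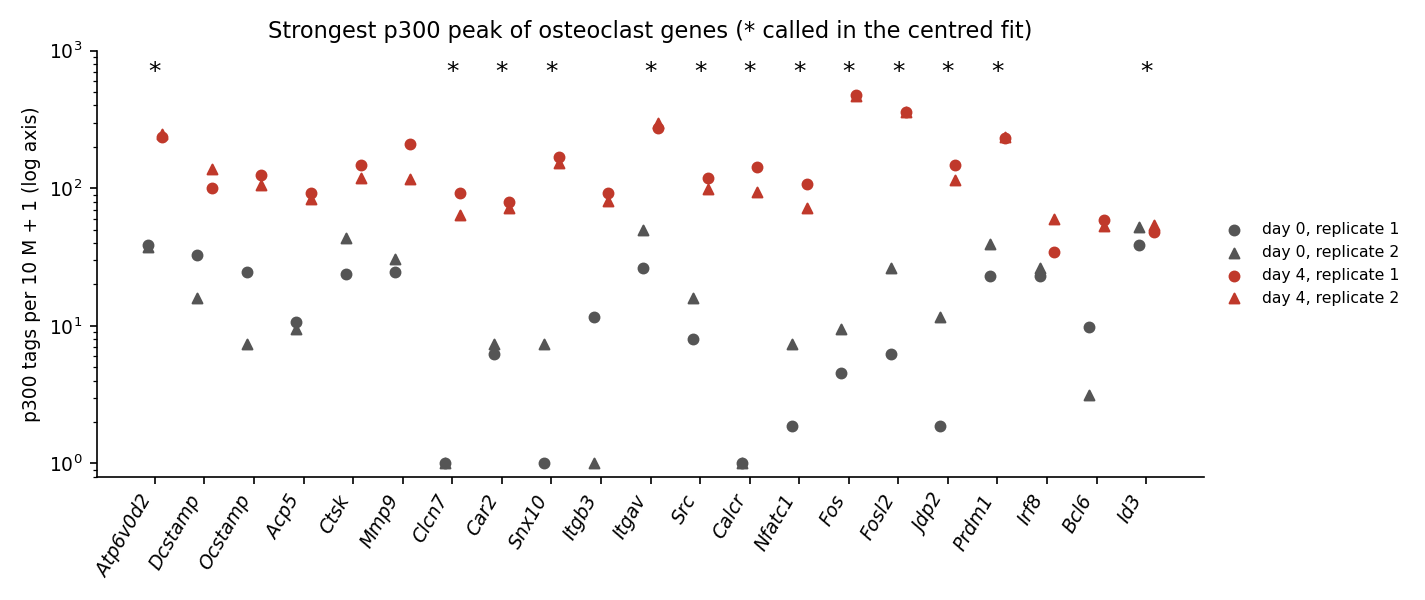
Tags per 10 M (log scale, with 1 added so that 0 can be drawn) in each of the 4 libraries for the strongest p300 peak of osteoclast genes. Each point is 1 library, grey for day 0 and red for day 4, with circles for replicate 1 and triangles for replicate 2, and an asterisk marks a centred call by edgeR. At Calcr both day 0 libraries are at 0, at Fosl2 the day 4 libraries reach 359 and 357, and at Id3 the day 4 points lie among those of day 0.

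Among genes of repressors known to hold osteoclast formation back, the strongest peaks of Irf8, Bcl6 and Id3 did not move together. Irf8 had 21.98 and 25.5 tags per 10 M at day 0 and 33.2 and 59.0 at day 4. It was not called, and its centred log2 fold change of -0.65 has the opposite sign to that by library totals (0.97). Bcl6 had 8.79 and 2.13 against 57.7 and 52.2, called by library totals (3.06) and not when centred (1.45). Id3, a dominant negative partner of basic helix-loop-helix factors, was lower relative to the rest (37.8 and 51.1 against 46.9 and 53.3, centred log2 fold change -1.41, edgeR adjusted p = 0.0371), but by library totals its log2 fold change was 0.20 and the groups overlapped. The inhibitory list had 1 higher (4.17%, against 8.8% of all peaks) and 1 lower peak of 24 (3.83% of all were lower). The higher one was also at Id3. The median centred log2 fold change of the 24 was -0.52, against 0.22 for all peaks. By library totals 11 of them were called higher, against 62.2% of all peaks, and 0 lower.

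Counted together, 72 of the 78 genes in the 7 osteoclast lists had a peak, 462 in all. Of these, 71 were higher relative to the rest (15.4%, against 8.8% of all peaks) and 5 lower (1.08% against 3.83%). Peaks of the same gene were counted singly, and a few genes gave many of the 71. Fos gave 8, Fosl2 and Prdm1 7 each, and Jdp2 and Mitf 4 each. By library totals 333 were higher (72.1% against 62.2%) and none was lower. The median centred log2 fold change was 0.56, against 0.22 for all peaks. Of the peaks more than 2 kb from a TSS, 66 of 391 were higher (16.9%, against 10.6% of all such peaks), and of those nearer, 5 of 71 (7.04% against 2.01%). At least 1 higher peak was found at 34 of the 72 genes (47.2%), against 15.9% of all 8405 genes with a peak, but an osteoclast gene had a median of 5 peaks and a gene at large 1. With only the strongest peak of each gene counted, 15 of 72 were higher and 1 lower, against 8.88% and 5.22% over all genes. Leaving out 1 library moved the count of 71 to between 13 (without day 4 replicate 1) and 166 (without day 0 replicate 1), with the share above that of all peaks each time (2.81% against 0.462%, and 35.9% against 30.4%).

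The label of day 4 cells was set beside marker genes. All 9 osteoclast markers (Acp5, Ctsk, Mmp9, Ocstamp, Dcstamp, Calcr, Atp6v0d2, Oscar and Itgb3) had a peak, and their 51 peaks summed to 772 and 660 tags per 10 M at day 0 and to 3739 and 3396 at day 4. The 19 macrophage identity genes with a peak (of 24) summed to 2133 and 1942 and to 4061 and 4271. All peaks together summed to 308146 and 316318 and to 960773 and 953362, so the osteoclast sum grew more, and the macrophage sum less, than the total. The stromal and the mast and erythroid sums below also grew more than the total, and in fold at least about as much as the osteoclast sum. The sums alone therefore do not set the osteoclast markers apart. Of the other cell types, none of the 5 lymphoid markers had a peak. Of 7 neutrophil markers 2 had one (S100a8 and S100a9, 3 peaks summing to between 38.3 and 85.1), with Elane, Mpo and Ly6g among those without. Of 6 stromal and osteoblast markers 4 had one (103 and 85.2 at day 0, 491 and 499 at day 4), with the defining Col1a1 and Sp7 among those without, and of 4 mast and erythroid markers Kit alone did (17.6 and 8.52 at day 0, 96.8 and 103 at day 4). The part of other cells in the p300 changes was not tested.

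Of the 86 peaks of the macrophage genes, 9 were lower relative to the rest (3.83% of all peaks were) and 3 higher (3.49%, against 8.8% of all), with a median centred log2 fold change of -0.24. By library totals 40 of the 86 were called higher and 2 lower, against 62.2% and 0.248% of all peaks. Their median log2 fold change on that scale was 1.38, against 1.84 for all peaks. The lower ones were 6 peaks of Lyz2, which encodes lysozyme, 2 of Cd36, a scavenger receptor, and 1 of Itgam, the CD11b integrin chain. Cd36 at 57935 bp went from 32.5 and 27.7 tags per 10 M to 2.93 and 7.94, lower on both scales (centred -4.09, totals -2.49). The higher ones were at Cx3cr1, Klf4 and Maf, with the last 2 at -246451 and 455892 bp from the TSS to which they were assigned.

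Among the peaks lower relative to the rest, those with the lowest p-values were also called lower by library totals, except 2 peaks at Lyz2 (log2 fold changes by totals -0.96 and -0.88). The peak with the lowest p-value lay 8935 bp from the TSS of Ctsl, which encodes the lysosomal protease cathepsin L (chr13:64361357-64361814), with 80.9 and 78.8 tags per 10 M at day 0 and 13.7 and 7.94 at day 4. Its log2 fold change was -4.46 centred (SE 0.43, edgeR adjusted p = 0.000816) and -2.85 by library totals, and a neighbour at 9418 bp fell from 29.0 and 38.3 to 1.96 and 3.403. At both Ctsl peaks every day 4 value was under every day 0 value.

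All 5 peaks assigned to Mmachc, a gene of cobalamin metabolism, were lower relative to the rest (3.83% of all peaks were). The one at 5893 bp fell from 87.0 and 89.4 tags per 10 M to 12.7 and 22.7 (centred -3.93, totals -2.32), and the one at 6772 bp, printed above and 666 bp past the annotated end of the gene, from 68.6 and 100.1 to 28.4 and 24.96 (centred -3.23, totals -1.63). Mir21a, a microRNA gene, had 6 lower peaks of 18, and the one at 2642 bp, 2349 bp past the end of Vmp1, fell from 152 and 143 to 76.3 and 69.2 (centred -2.63, edgeR adjusted p = 0.00239). Here too the day 4 libraries were below those of day 0 without overlap.

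Several of the other lower peaks lay in or near genes that macrophages express at a high level. Fth1, the heavy chain of the iron store ferritin, had 6 lower peaks of 12, and the peak at 2980 bp, which lies in an intron of Best1, fell from 306 and 189 tags per 10 M to 104 and 99.8 (centred -2.93, totals -1.30). Lyz2 had 6 of 8, including those at 6297 bp (266 and 215 against 122 and 126) and 5416 bp (175 and 149 against 71.4 and 107). The long non-coding RNA gene Neat1 had 10 of 16, more than any other gene, and its peak at 2878 bp fell from 109.9 and 46.8 to 14.7 and 19.3 (centred -3.89). The groups did not overlap at any of these 4 peaks.

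The remaining peaks named by the lowest p-values were the promoter of Cox6a1, a subunit of the respiratory chain (43.1 and 91.6 against 14.7 and 18.1, centred -3.56), and 3 peaks lower by library totals at BC005537, Kif2c and Neat1. Other genes with several lower peaks were Psap with 6 of 14 and Ctsb with 4 of 11, both for lysosomal proteins, Lpl, which encodes lipoprotein lipase, with 5 of 8, and Lilrb4a, an inhibitory receptor gene, with 4 of 8. The 3 lower peaks of Mmp12, which encodes macrophage elastase, of 7 in all, had a median centred log2 fold change of -3.77. Genes used by every cell also recurred (Actb 4 of 8, H3f3b 3 of 4), as did all 6 peaks of Rn45s, a ribosomal RNA gene present in many copies, whose tags cannot be placed with certainty. In all, 644 genes had a lower peak, 1339 a higher one and 46 both.

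Among all genes, Rreb1 had the most higher peaks (9 of 30, against 8.8% of all peaks). Next were Fos and Nrp2 (8 of 22), which encodes the semaphorin coreceptor neuropilin-2. Of the 5 higher peaks with the lowest p-values, those of Fos and Fosl2 are given above. One assigned to H2afy3, inside Pvt1, went from 2.64 and 0 tags per 10 M to 248 and 273 (ratio 139 by library totals, 95% counting interval 47.4 to 678). One in an intron of Fam102a, a gene induced by RANKL, rose from 1 tag in each day 0 library to 188 and 147 tags (ratio 141, 38.8 to 1172). The last of the 5, near Gm2176 and 14001 bp from its TSS, went from 1 and 0 tags to 269 and 243 (ratio 432, 77.2 to 17103).

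The 2 classes differed in where they lay. Within 2 kb of a TSS were 468 of the 771 lower peaks (60.7%) and 84 of the 1773 higher ones (4.74%), against 20.7% of all peaks. Seen from the promoter side, 11.2% of the 4171 peaks near a TSS were lower and 2.01% higher, and their median centred log2 fold change was -0.61, against 0.44 for peaks farther away. By library totals these medians were 1.00 and 2.06, so promoter peaks also gained tags, by less. The promoters of the respiratory chain genes Cox5b (18.5 and 59.6 against 19.6 and 15.9, centred -2.61) and Sdhb (58.0 and 42.6 against 51.8 and 42.0, centred -1.75) were examples, both lower relative to the rest and neither called by totals. At both promoters the day 0 libraries lay on either side of day 4 replicate 1, so by library totals the groups overlapped.

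Peaks at the ends of genes were the other place where lower calls gathered. Of 688 peaks within 2 kb of the annotated end of a protein-coding gene and away from a TSS, 85 were lower (12.4%) and 50 higher (7.27%). They made up 11.0% of all lower peaks and 3.42% of all peaks. The Mmachc and Lyz2 peaks given above, the Fth1 peak at 2980 bp and the Ctsl peak at 9418 bp are of this kind. Elsewhere inside genes 94 of 8201 peaks were lower and 878 higher, and outside genes 112 of 7071 were lower and 761 higher. The 12 peaks on the mitochondrial genome, which is not wrapped in histones, were all lower when centred (median -2.07) and none was by library totals (median -0.48). They held 767 to 1868 tags each, and their counts are limited because at most 3 tags were kept per position.

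**Figure D3:**
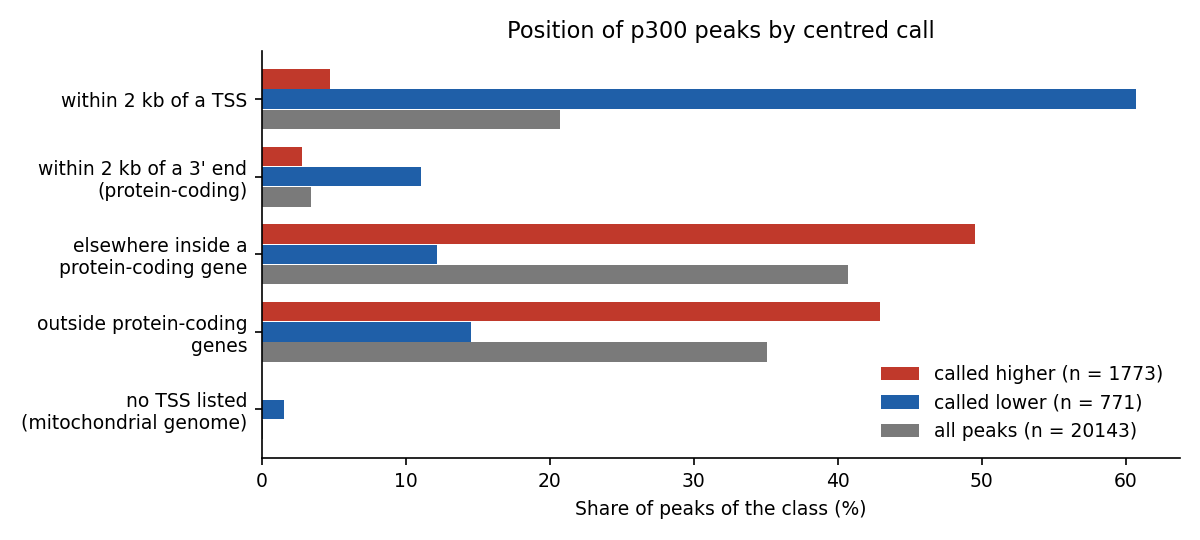
Position of the p300 peaks called higher (red) or lower (blue) when centred and of all peaks (grey), as the share of each class in percent. Peaks within 2 kb of a TSS make up 60.7% of the lower, 4.74% of the higher and 20.7% of all peaks, and those elsewhere inside a protein-coding gene 12.2%, 49.5% and 40.7%.

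Base composition followed position. The median GC content in the central 200 bp was 63.5% for lower peaks near a TSS (61% for all peaks there) and 46.5% for those farther away (47% for all such peaks). Higher peaks had 47% farther away and 49.25% near a TSS, where the latter were thus poorer in GC than the other peaks. The part of base composition in the calls was not tested.

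Letters of known binding motifs were counted in the central 200 bp of the peaks more than 2 kb from a TSS, on both strands. Shares are descriptions of letters, given with those of all 15959 such peaks, and say nothing of a factor's presence. AP-1 letters (TGANTCA) were in 53.5% of the 1689 higher peaks, 11.3% of the 291 lower peaks and 42.4% of all. NFAT letters (TGGAAA) were in 44.3%, 18.9% and 26.8%, and those of NF-κB (GGANTTTCC) in 6.51%, 1.37% and 2.91%. The factors that RANKL is known to act on thus had their letters most often in the higher peaks.

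Letters of macrophage lineage factors had the reverse order or none. PU.1 letters (GAGGAAGT) were in 5.86% of higher, 6.87% of lower and 10.2% of all these peaks, and C/EBP letters (TTGCNNAA) in 5.45%, 19.6% and 13.7%. RUNX letters (TGTGGTT) were in 8.82%, 8.59% and 11.1%. Turned round, 17.5% of the 4278 peaks with NFAT letters were higher, against 8.06% of those without. For NF-κB the shares were 23.7% of 464 and 10.2%, for AP-1 13.4% and 8.54%, and for C/EBP 4.22% and 11.6%. Near a TSS, the letters of NRF1 (GCGCATGCG), a regulator of mitochondrial genes, were in 12.6% of the 467 lower peaks and 4.30% of all 4166 peaks there.

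**Figure D4:**
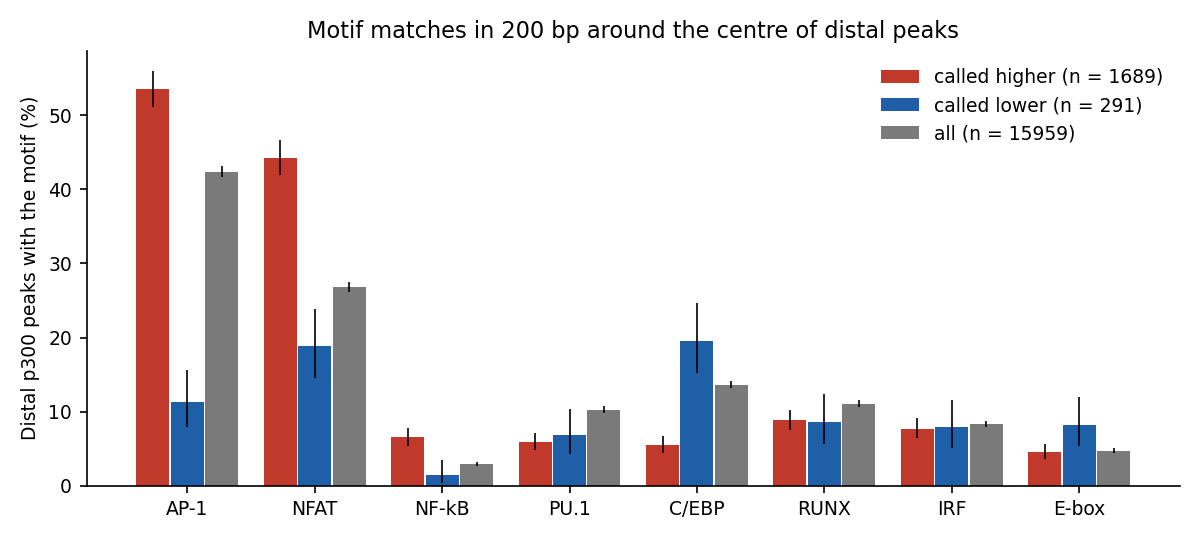
Share of p300 peaks, in percent, that hold the letters of each motif in the central 200 bp, for peaks more than 2 kb from a TSS that were called higher, called lower, or of any call (all), centred on all peaks. Error bars are 95% binomial intervals for counting alone. AP-1 letters reach 53.5% in higher and 11.3% in lower peaks, and C/EBP letters 5.45% and 19.6%.

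Other tables of the series gave readouts that did not enter the choice of these peaks, matched where peak centres lay within 200 bp. ERK1, a kinase measured at the same days in other libraries, had a peak at 190 of the 1773 higher p300 peaks (10.7%) and at 334 of the 771 lower ones (43.3%), against 40.6% of all. Its median centred log2 fold change, day 4 against day 0, was 0.43 at the higher peaks (quartiles -0.10 and 0.81), -0.22 at the lower (-0.60 and 0.22) and -0.03 at all 8185. When centred, the medians took the direction of the p300 change, with quartile ranges that overlapped. By library totals they were all above 0 (1.42 at the higher, 0.74 at the lower and 0.94 at all). The ERK1 day 4 replicate 2 library carries a later library date code than the rest of the ERK1 libraries compared here. No ERK1 peak was called in either direction (0% of 14957) by edgeR or DESeq2. At an unadjusted p-value under 0.05, edgeR gave 782 higher and 1042 lower and DESeq2 547 and 895, and by library totals 348 were called higher and 4 lower.

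p300 was also profiled in bone marrow-derived macrophages given vehicle or KLA (Kdo2 lipid A), which activates the receptor TLR4. Among p300 peaks higher at day 4, 758 (42.8%) had a peak in those macrophages, against 72.2% of the lower and 76.7% of all. Where matched, the median centred log2 fold change with KLA was 0.69 at the day 4 higher peaks (quartiles -0.31 and 1.83), -1.03 at the lower (-1.41 and -0.55) and -0.31 at all 15449. Of the 758, KLA raised 308 and lowered 84, and of the 557 matched lower peaks it raised 21 and lowered 292. Of all 15449 matched peaks it raised 2598 and lowered 3930. Across all 67998 peaks found in those macrophages, matched or not, KLA calls were 32.7% higher and 23.9% lower. By library totals the medians were 1.20, -0.51 and 0.21.

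**Figure D5:**
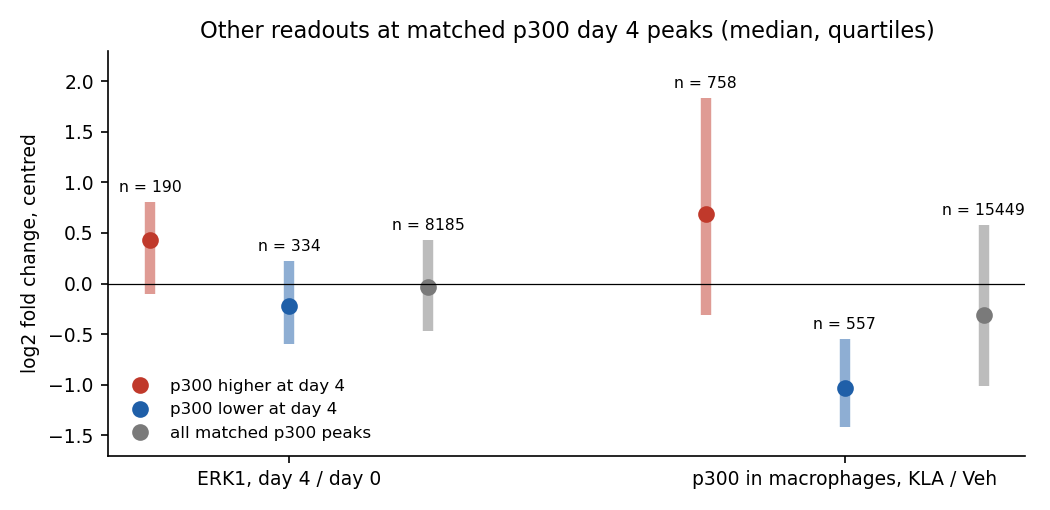
Log2 fold change, centred on all peaks, of ERK1 (day 4 against day 0) and of p300 in macrophages (KLA against vehicle) at p300 peaks that were higher, lower or of any class at day 4. Points are medians and bars span the quartiles, and n is the number of matched peaks. ERK1 medians are 0.43, -0.22 and -0.03, and those of KLA 0.69, -1.03 and -0.31.

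Sites found for other proteins in wild-type macrophages given vehicle or KLA were set beside both classes of p300 peak. Peaks of PU.1, the lineage factor of macrophages, matched 24.6% of the higher peaks, against 51.2% of the lower and 60.4% of all p300 peaks. For Fosl2 the shares were 29.5%, 42.7% and 60.4%, for the NF-κB subunit p65 35.0%, 55.9% and 67.8%, and for the corepressor NCoR 32.9%, 64.5% and 71.9%. Regions in which the acetylation mark H3K27ac was counted matched 14.0% of the higher, 59.9% of the lower and 43.3% of all. That mark was counted in macrophages, wild-type or lacking NCoR, given vehicle or KLA. These tables hold different numbers of regions, and the shares are descriptions of position only.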

How the data were processed

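The members and gene lists were chosen with earlier results of these data known. ChIP-seq of p300 was compared in 2 day 0 and 2 day 4 libraries from wild-type marrow cultures. As the labels and methods state, cells were fixed with disuccinimidyl glutarate and formaldehyde, Bowtie2 placed the reads on mm10, and HOMER peaks reproducible between replicates (IDR) were merged over days. The deposited values are raw tag counts per peak, not normalized, with tags beyond 3 per position dropped. Tool versions are not given in the sources used here. Input libraries were not analysed here.

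Counts were scaled by the header totals (4.70 to 11.38 M tags per library) or by TMM factors over all peaks, and fitted with edgeR 4.0.16 in R 4.3.3 (quasi-likelihood F-test, two-sided) over the peaks with at least 4 tags in 1 library, which all 20143 peaks passed. Only these 4 libraries entered the fit, so p-values measure the spread between 2 libraries per day. P-values were adjusted over all peaks, and calls needed an adjusted p-value below 0.05 with a change over 2-fold. Peaks carry the nearest gene the table lists. For each list gene the strongest peak (mean over the 4 libraries) was taken. Named with values were the strongest peaks of 10 fixed genes, up to 4 called genes per list with the largest centred change, and on each scale the 10 lower and 5 higher peaks with the lowest p-values. Further called peaks of list genes and the genes with the most called peaks were named after their values were seen. Some items that this rule covers are not reported here. The SE is the log2 fold change over the square root of F. Against 0 tags a fold is a bound from a floor of 3 tags over the group, and with 1 to 3 day 0 tags a ratio with a 95% counting interval is given. Motif letters were counted in 20125 peaks, leaving out the mitochondrial genome and sequences outside the reference. The build was checked: 20137 peaks lay on mm10 chromosomes, and 94.7% of listed TSS distances were within 10 bp of the RefSeq annotation. The fits were tested on simulated data. Python 3.11.15, pandas 2.3.3, scipy 1.17.1 and matplotlib 3.10.9 were used. Alternatives were the Wald test of DESeq2 1.42.0, other size factors, other filters, a replicate block, distal peaks only, no minimum fold, and leaving out each library.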

Additional observations from a re-analysis of the deposited data

How the results depend on the processing

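The day 0 libraries were shallow in peaks, and the counts of calls moved with most settings. By library totals the 12531 higher and 50 lower peaks became 7008 and 13 with DESeq2, 2026 and 667 with its size factors in edgeR and 1773 and 771 with TMM factors, and leaving out each library gave 3006 to 15018 higher and 6 to 218 lower. Centred, the 1773 and 771 became 518 and 214 with DESeq2 and 12531 and 50 by library totals, the lower count was 351 with distal peaks only, and leaving out each library gave 93 to 6119 higher and 83 to 2142 lower. Without day 4 replicate 1 the centred counts were 93 and 83, without day 4 replicate 2 they were 125 and 85, without day 0 replicate 1 they were 6119 and 1771, and without day 0 replicate 2 they were 3831 and 2142. In these fits the lone library was assumed to vary like the other day. The share of calls that were lower was 30.3% centred, 41.6% with a replicate block, 24.8% with DESeq2 size factors in edgeR and 0.397% by library totals.

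The osteoclast lists went from 71 higher and 5 lower to 24 and 1 with DESeq2, 333 and 0 by library totals and 13 to 166 and 0 to 39 with a library left out, and with DESeq2 size factors in edgeR the lower count was 3. ERK1 medians at higher, lower and all p300 peaks were 1.42, 0.74 and 0.94 by library totals and ran from 0.35 to 0.40, -0.25 to -0.16 and -0.051 to -0.017 with a library left out. The ERK1 median at lower peaks was -0.27 with centres within 100 bp and -0.18 within 500 bp, and that at all peaks -0.023 within 100 bp. The KLA medians were 1.20, -0.51 and 0.21 by library totals, and at all peaks -0.26 with DESeq2 and -0.32 to -0.26 with a library left out. Of the 45 named peaks, Irf8 (0.97) and Id3 (0.20) changed sign by library totals. DESeq2 lost the call at 11 of them, and leaving out day 4 replicate 1 or 2 at 15 or 13. Over peaks at any distance, motif shares changed with a window of 100 bp or the whole peak, with the AP-1, NFAT and NF-κB shares largest in the higher and smallest in the lower peaks in all 3 windows. No filter, edgeR's filterByExpr and no minimum fold left each count of peaks within 1.5 times. The causes were not tested.

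The replicate numbers are shared between days by title only. Same-numbered libraries did not deviate together (correlation of deviations -0.00201). With so few day 0 tags per peak, this cannot show whether same-numbered libraries came from the same culture. With a replicate block the counts were 8375 higher and 19 lower by library totals and 879 and 625 centred, 46 and 5 in the osteoclast lists, and the ERK1 medians at higher and all peaks were 0.49 and -0.017. The block lost the call at 8 of the 45 named peaks and gained 1.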

Other observations

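Repeats and small lists gave further values. LTR elements, remnants of retroviruses, held 154 higher and 16 lower of 1345 peaks (11.4% higher, against 8.8% of all peaks). The peaks whose detailed annotation is a CpG island, a class that leaves out most promoter peaks, had 21 lower and 0 higher of 212 (9.91% lower, against 3.83% of all peaks). Of the 5 peaks in ribosomal RNA repeats 3 were lower. Targets of the liver X receptors had 1 higher (3.70%, against 8.8% of all peaks) and 0 lower peak of 27 (3.83% of all peaks were lower). Inflammatory genes induced through TLR4 had 2 higher (14.3%, against 8.8% of all peaks) and 1 lower of 14, too few to set apart from all peaks. The higher ones were at Il12b (1 and 0 tags at day 0, 45 and 34 at day 4) and Il1b, and the lower one at the Tnf promoter. S100a9 had a peak with 0 and 1 tags at day 0 and 33 and 45 at day 4 that was called higher, and S100a8, its neighbour and partner in the calprotectin complex, one that was lower (32.5 and 21.3 against 5.87 and 5.67 tags per 10 M). Runx2 and Tnfrsf11b, the decoy receptor of RANKL, had 1 higher peak each.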
